A study of Homo sapiens with 4 samples.

Results

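Matrix metalloproteinases (MMPs) are secreted or membrane-anchored zinc endopeptidases that cut collagens, laminins and other matrix proteins, and tissue inhibitors of metalloproteinases (TIMPs) bind and block their active sites. They are made as inactive precursors, so transcript levels say nothing of how much enzyme was active. In bladder cancer the family is known for its part in invasion through the basement membrane. The genes described here are the 8 metalloproteinases MMP1, MMP2, MMP9, MMP14, MMP15, MMP16, MMP19 and MMP24 and the 2 inhibitors TIMP1 and TIMP2, chosen by symbol. All 10 were found among the 32973 genes of the deposited table.

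The study screened for transcripts downstream of BCUC-1, a name for the circular RNA hsa_circ_0001361, by sequencing RNA of 2 human bladder cancer lines. T24T is a more aggressive variant of the T24 line, and UMUC3 is a line from a transitional cell carcinoma of the bladder. The 4 groups, each of 1 library, were T24T stably carrying a plasmid that overexpresses BCUC-1, T24T with the empty vector, UMUC3 with the BCUC-1 plasmid, and UMUC3 with the empty vector. All were grown in RPMI-1640 with fetal bovine serum and antibiotics. Whether each stable line was 1 clone or a pool, and whether separate cultures were sampled, is not given in the sources used here.

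Levels are in RPKM, reads divided by exon length in kilobases and scaled to the assigned reads of the library. The libraries held 22730112 to 26497894 assigned reads, with reads in 26385 to 26808 genes. FNDC3B, the gene from which the circle arises, had 5.40 and 5.68 RPKM in the T24T BCUC-1 and vector libraries, against 6.19 and 6.27 RPKM in the UMUC3 BCUC-1 and vector libraries. A gene-level value does not separate circular from linear transcripts, so it is no measure of BCUC-1. The epithelial keratin gene KRT8 had 146 RPKM in T24T BCUC-1 and 133 RPKM in T24T vector, and it had 13.2 RPKM in UMUC3 BCUC-1 and 13.0 RPKM in UMUC3 vector. The epithelial adhesion genes EPCAM and CDH1 had at most 13 reads and 1 read in any library, so these defining epithelial markers were at or near 0 in both lines. Some other epithelial genes were present. KRT18 had 88.2 and 81.5 RPKM in T24T BCUC-1 and vector and 42.1 and 39.9 RPKM in UMUC3 BCUC-1 and vector. KRT7 had 24.9 and 27.1 RPKM in T24T BCUC-1 and vector and 3.02 and 2.99 RPKM in UMUC3 BCUC-1 and vector. PPARG, a urothelial transcription factor gene, had 153 and 175 reads in T24T BCUC-1 and vector and 152 and 201 reads in UMUC3 BCUC-1 and vector. That was at most 1.875 RPKM. The remaining epithelial and urothelial markers looked up were low. In any library GATA3 had at most 22 reads, TP63 33, UPK2 25, UPK1A 12, KRT5 3, KRT19 2 and UPK3A 1. UPK1B had 55 and 48 reads in T24T BCUC-1 and vector and 0 in UMUC3 BCUC-1 and vector.

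MMP9, or gelatinase B, degrades type IV collagen and denatured collagen. It lies on the plus strand of chromosome 20 at chr20:46008908-46016561 (GRCh38, ENSG00000100985). It had the largest BCUC-1 over vector ratio of the family in each line, and its counts were low in both. In T24T it had 27 reads (0.490 RPKM) with BCUC-1 and 2 reads (0.0362 RPKM) with vector. In UMUC3 it had 137 reads (2.58 RPKM) with BCUC-1 and 37 reads (0.598 RPKM) with vector. The BCUC-1 library was the higher of the pair in both lines, and the T24T BCUC-1 library stayed below the UMUC3 vector library. In bulk RNA, more cells with MMP9 transcripts and more transcripts per cell cannot be told apart.

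The ratio of BCUC-1 to vector for MMP9 was 13.6 in T24T (95% Clopper-Pearson interval 3.41 to 118) and 4.32 in UMUC3 (2.98 to 6.39). With 1 library per group a ratio within a line has no replicate check and no p-value, and these intervals cover counting error only. The T24T interval is wide because its vector library held 2 reads. On the log2 scale the ratios were 3.76 and 2.11. With a floor of 20 reads per pair of libraries, MMP9 ranked 1 of 17882 in T24T and 6 of 17525 in UMUC3. In T24T it reached that floor through its BCUC-1 library (27 reads against 2), so the rank restates the ratio and adds no support. With a floor of 100 reads MMP9 ranked 1 of 13795 in UMUC3 and did not enter in T24T. In UMUC3 it reached that floor through its BCUC-1 library (137 reads against 37), so this rank adds no support either.

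The other 9 genes had smaller ratios in both lines. In T24T their log2 ratios ran from -0.66 for MMP19 to 0.13 for TIMP1, with a median of -0.21, 3 above and 6 below 0. None of the 9 counting intervals in T24T excluded a ratio of 1. In UMUC3 they ran from -0.15 for MMP16 to 1.13 for MMP15, with a median of 0.15, 7 above and 2 below 0. There 5 intervals lay above a ratio of 1 (MMP2, MMP14, MMP15, MMP19 and TIMP2) and 1 below it (MMP16). Of all UMUC3 genes at the read floor, 10002 lay above a ratio of 1 and 7523 below it. The share whose intervals excluded 1 was not computed, so these counts are not read as a trait of the family. UMUC3 genes with 1000 or more reads had log2 ratios with an SD of 0.16. In that class MMP14 (0.18), MMP16 (-0.15), MMP19 (0.19) and TIMP2 (0.15) were near that size, and MMP2 (0.36) was larger.

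**Figure D1:**
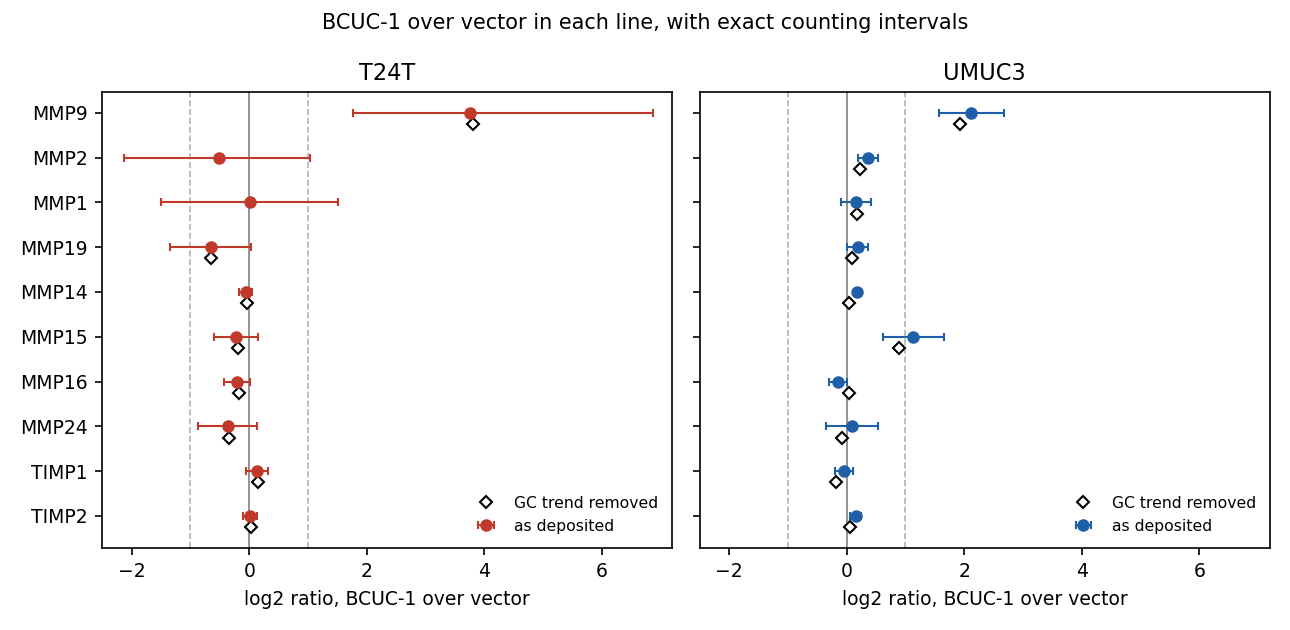
Log2 ratio of BCUC-1 over vector for each gene in T24T (left) and UMUC3 (right), with 95% Clopper-Pearson counting intervals as bars. Open diamonds show the ratio after the trend with GC content was removed, and dashed lines mark 2-fold. MMP9 stands at 3.76 in T24T and 2.11 in UMUC3, and of the other genes MMP15 in UMUC3 alone lies past 2-fold.

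At 20 or more reads in the pair, 1 of 8 genes in T24T (MMP9) was at least 2-fold higher with BCUC-1, against 0.414% of all such genes, and 0 were at least 2-fold lower, against 0.839%. MMP1 and MMP2 did not reach 20 reads in T24T. MMP9 reached them there through its BCUC-1 library, the one where it was high. In UMUC3, 2 of 10 (MMP9 and MMP15) were at least 2-fold higher, against 0.964% of all genes, and 0 were at least 2-fold lower, against 0.611%. At 100 or more reads both still counted in UMUC3, where 0.058% of genes did. Both reached that floor mostly through their BCUC-1 library (137 reads against 37 for MMP9, 92 against 49 for MMP15). The floor thus favoured this direction, and the count adds no support. In T24T 0 of 6 were at least 2-fold higher at that floor, as were 0 of all 14120 genes (0%).

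The spread of the background narrowed as reads rose. In T24T, genes with 20 to under 100 reads in the pair had log2 ratios with an SD of 0.51 and included all 74 that were 2-fold higher and all 150 that were 2-fold lower. MMP9, with 29 reads, and MMP19, with 80, are in that class. In UMUC3, genes with 100 to under 1000 reads had an SD of 0.25 and held 7 that were 2-fold higher, among them MMP9 and MMP15. From 1000 reads upward the T24T ratios had an SD of 0.087 and the UMUC3 ratios 0.16.

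**Figure D2:**
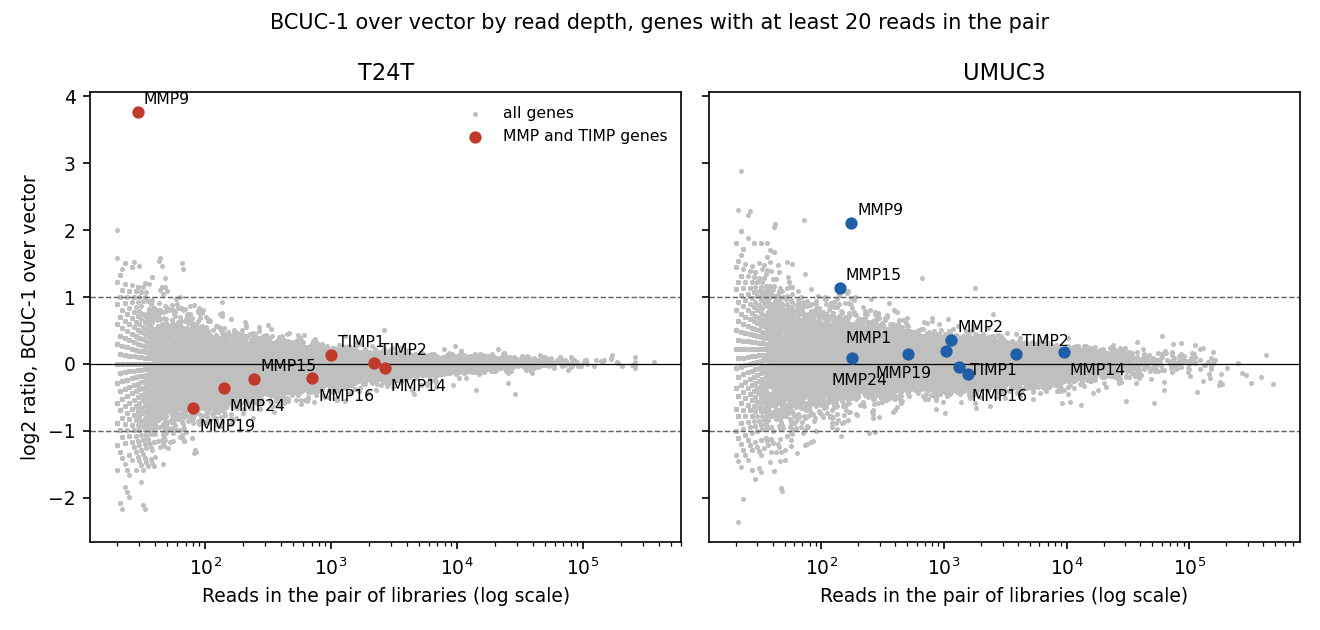
Log2 ratio of BCUC-1 over vector against reads in the pair of libraries (log axis) for all genes past the 20-read floor (grey) and for the MMP and TIMP genes (coloured), in T24T (left) and UMUC3 (right). The grey cloud narrows as reads rise, and MMP9 lies above the genes of similar read number in both panels.

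Of the 16109 genes that reached this floor in both lines, 4 were at least 2-fold higher with BCUC-1 in each line. They are MMP9 and 3 genes named after their values were seen, MIR1244-4, RP11-112J1.1 and HMGN1P37. MIR1244-4 had 16 and 8 reads with BCUC-1 and vector in T24T, and again 16 and 8 in UMUC3. RP11-112J1.1 had 21 and 10 reads in T24T BCUC-1 and vector, and 21 and 12 in UMUC3 BCUC-1 and vector. HMGN1P37, by its symbol a pseudogene of HMGN1, had 20 and 9 reads in T24T BCUC-1 and vector, and 14 and 6 in UMUC3 BCUC-1 and vector. MMP9 was the deepest of the 4 in UMUC3, and in T24T it reached the floor through its BCUC-1 library. Another 4 genes were at least 2-fold lower in each line.

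Taking the lines as the only replication, limma on log2(RPKM + 1) with cell line in the model called 0 of 15415 genes, or 0%, at the 0.05 threshold after Benjamini-Hochberg adjustment. The smallest limma adjusted p was 0.104, and 652 genes had an unadjusted p under 0.05. The 8 genes of the family that entered ran from a log2 change of -0.11 (MMP16) to 0.15 (MMP15, SE 0.14), all with limma adjusted p of 0.997 or more. MMP9 and MMP24 did not enter, because fewer than 2 libraries reached 1 RPKM. With a floor of 1 RPKM in 1 library, MMP9 had a log2 change of 0.84 (SE 0.18) and a limma adjusted p of 0.559. It passed that floor through UMUC3 BCUC-1 alone (2.58 RPKM), so the floor favoured this direction. The added 1 RPKM shrinks differences of genes this low: its log2(RPKM + 1) difference was 0.52 in T24T and 1.16 in UMUC3.

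A test on recovered reads gave another answer for MMP9. Limma-voom on the reads that RPKM and length imply called 15 of 16109 genes (0.0931%), 4 higher and 11 lower with BCUC-1. MMP9 was the 1 gene called among the 8 of the family that entered, with a log2 change of 2.49 (SE 0.30, limma-voom adjusted p = 1.75e-12), higher in 2 of 2 lines. Genes entered this test at 20 or more reads in the pair of each line. In T24T MMP9 reached that floor through its BCUC-1 library (27 reads against 2), so the floor favoured this direction. The model leaves 1 residual degree of freedom and moderates the variance over the whole table. The p rests on MMP9 varying like other genes of its level. Because no source states separate cultures, all p-values here measure the spread between these libraries.

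MMP9 exons share 430 bases with RP11-465L10.10, a gene on the opposite strand, and whether strand was used in counting is not given in the sources used here. That gene had 9 and 5 reads in T24T BCUC-1 and vector, and 84 and 50 reads in UMUC3 BCUC-1 and vector. The part of shared reads in the MMP9 values was not tested.

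By profile over the 4 libraries, the 5 genes nearest to MMP9 among 16108 were LINC00702, AC002480.3, ZNF788, RP11-110I1.5 and KRTAP2-3, at Euclidean distances of 1.96 to 2.33 between centred log2 read counts scaled to library size. LINC00702 had 32 and 11 reads in T24T BCUC-1 and vector, and 119 and 114 reads in UMUC3 BCUC-1 and vector. KRTAP2-3, a keratin-associated protein gene, had 48 and 18 reads in T24T BCUC-1 and vector, and 120 and 147 in UMUC3 BCUC-1 and vector. The 5 had log2 ratios of 1.42 to 1.55 in T24T and of -0.07 to 0.28 in UMUC3. All 5 had their lowest count in T24T vector, as MMP9 did, which their choice by profile over these same 4 libraries favours. None of the 5 was 2-fold higher with BCUC-1 in UMUC3.

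MMP2, gelatinase A, shares substrates with MMP9, and its precursor is activated at the cell surface by MMP14 together with TIMP2. It lies at chr16:55389700-55506691 on the plus strand (ENSG00000087245). It had 7 reads (0.0602 RPKM) in T24T BCUC-1 and 10 reads (0.0856 RPKM) in T24T vector, against 600 reads (5.35 RPKM) in UMUC3 BCUC-1 and 545 reads (4.17 RPKM) in UMUC3 vector. It had 10 reads or fewer in the T24T libraries and was number 5 of 10 in UMUC3 BCUC-1 and number 6 in UMUC3 vector by RPKM. In UMUC3 its ratio of BCUC-1 to vector was 1.28 (1.14 to 1.44), the next largest after MMP9 and MMP15. In T24T the ratio was 0.703 (0.227 to 2.05).

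MMP1, the interstitial collagenase that cleaves fibrillar collagen, lies on the minus strand at chr11:102789920-102798160 (ENSG00000196611). It had 9 reads in each T24T library, 0.194 RPKM with BCUC-1 and 0.193 RPKM with vector. In UMUC3 it had 246 reads (5.49 RPKM) with BCUC-1 and 258 reads (4.94 RPKM) with vector, a ratio of 1.11 (0.930 to 1.33) that did not differ beyond counting error. Its pattern was a gap between lines. Between plasmids the UMUC3 levels were close, while the T24T ratio of 1.00 (0.353 to 2.85) rests on counts under the read floor.

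MMP19, a secreted protease that cuts basement membrane proteins, lies on the minus strand at chr12:55835433-55842966 (ENSG00000123342). It had 31 reads (0.281 RPKM) in T24T BCUC-1 and 49 reads (0.443 RPKM) in T24T vector, and 514 reads (4.84 RPKM) in UMUC3 BCUC-1 and 526 reads (4.25 RPKM) in UMUC3 vector. The ratio was 0.635 (0.392 to 1.02) in T24T and 1.14 (1.01 to 1.29) in UMUC3. The BCUC-1 library was thus the lower of the pair in T24T and the higher in UMUC3. Its exons share 814 bases with TMEM198B on the opposite strand, which had 190 and 255 reads in T24T BCUC-1 and vector and 97 and 104 reads in UMUC3 BCUC-1 and vector; the part of shared reads was not tested.

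MMP14, or MT1-MMP, is a membrane-anchored collagenase and the activator of pro-MMP2. It lies on the plus strand at chr14:22836557-22849027 (ENSG00000157227). It was the most abundant protease of the family in all 4 libraries, with 1300 reads (12.3 RPKM) in T24T BCUC-1 and 1361 reads (12.9 RPKM) in T24T vector, against 4657 reads (45.9 RPKM) in UMUC3 BCUC-1 and 4808 reads (40.6 RPKM) in UMUC3 vector. The 2 UMUC3 libraries lay above the 2 T24T libraries. The ratio of BCUC-1 to vector was 0.959 (0.888 to 1.03) in T24T and 1.13 (1.08 to 1.18) in UMUC3.

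MMP15, or MT2-MMP, another membrane-anchored protease, lies on the plus strand at chr16:58025566-58046901 (ENSG00000102996). It had 112 reads (1.07 RPKM) in T24T BCUC-1 and 132 reads (1.26 RPKM) in T24T vector, against 92 reads (0.916 RPKM) in UMUC3 BCUC-1 and 49 reads (0.418 RPKM) in UMUC3 vector. The UMUC3 vector library was the low one of the 4. In UMUC3 the ratio of BCUC-1 to vector was 2.19 (1.53 to 3.16), rank 110 of 17525 genes and rank 4 of 13795 at 100 or more reads. MMP15 reached 100 reads in that pair mostly through its BCUC-1 library, so rank 4 adds no support. In T24T the ratio was 0.852 (0.656 to 1.10), on the other side of 1.

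The promoters of MMP15, MMP14 and TIMP1 are shown because MMP15 alone besides MMP9 passed 2-fold, while MMP14 and TIMP1 are the most abundant protease and inhibitor. Each is 250 bases before to 50 after the start, from RefSeq on GRCh38.p14, plus strand, at chr16:58025504-58025803, chr14:22836335-22836634 and chrX:47582186-47582485 in the order printed. Entries were matched for 4 of the 10 genes, these 3 and MMP24. Capitals mark matches to the GC box GGGCGG, or to CCGCCC, the same letters read on the other strand.
MMP15: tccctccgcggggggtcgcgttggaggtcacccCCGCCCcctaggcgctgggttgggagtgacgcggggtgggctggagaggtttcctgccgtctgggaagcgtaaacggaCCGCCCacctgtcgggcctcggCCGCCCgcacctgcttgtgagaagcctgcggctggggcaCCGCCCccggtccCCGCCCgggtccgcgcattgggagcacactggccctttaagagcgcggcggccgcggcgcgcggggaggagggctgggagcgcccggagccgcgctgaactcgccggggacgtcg
MMP14: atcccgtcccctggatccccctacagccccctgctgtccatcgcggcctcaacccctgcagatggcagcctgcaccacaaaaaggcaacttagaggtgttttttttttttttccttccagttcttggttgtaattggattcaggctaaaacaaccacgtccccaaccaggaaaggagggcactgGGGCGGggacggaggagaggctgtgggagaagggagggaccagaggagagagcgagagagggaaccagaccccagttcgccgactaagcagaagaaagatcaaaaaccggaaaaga
TIMP1: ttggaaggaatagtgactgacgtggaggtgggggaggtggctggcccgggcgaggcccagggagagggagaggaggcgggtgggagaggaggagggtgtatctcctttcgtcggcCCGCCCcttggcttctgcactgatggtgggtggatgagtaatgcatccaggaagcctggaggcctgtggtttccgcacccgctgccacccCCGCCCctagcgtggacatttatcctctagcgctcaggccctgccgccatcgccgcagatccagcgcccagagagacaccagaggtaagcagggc
The MMP15 window is 75.3% G and C, a share higher than in 91.0% of 35116 promoters, whose median is 58.7%, and it held 5 GC box matches. The MMP14 window is 55% G and C with 1 match, and the TIMP1 window is 65% G and C with 2. The GC box letters were in 45.0% of all promoters. The AP-1 letters TGANTCA, in 7.71% of promoters, and the TATA box letters TATAAA, in 11.5%, were searched on both strands and were in none of the 4 windows. These are matches of letters in 300 bases and no measure of a factor.

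Base composition moved with the ratio in UMUC3, and MMP15 is among the richest genes in G and C. Over 20 bins of genes by the GC content of their longest transcript, the median log2 ratio in UMUC3 ran from -0.19 in the bin of lowest GC, which holds MMP16, to 0.24 in the bin of highest GC, which holds MMP15. In T24T the same outer bins had -0.04 and -0.04. MMP9 transcripts have a GC content of 62.4%, MMP15 transcripts 66.0% and MMP16 transcripts 36.4%.

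With the trend of each line removed, the log2 ratio of MMP9 was 3.80 in T24T and 1.92 in UMUC3 (interval 1.39 to 2.49), past 2-fold in both. That of MMP15 in UMUC3 was 0.89 (0.38 to 1.42), under 2-fold and above 0. Of the smaller UMUC3 ratios, MMP2 stayed above 0 at 0.22 (0.05 to 0.39), while MMP14 at 0.03, MMP16 at 0.04, MMP19 at 0.10 and TIMP2 at 0.05 had intervals that held 0. For MMP16 and MMP24 the direction turned, to 0.04 and -0.07, and both intervals held 0. TIMP1 had -0.19 (-0.34 to -0.03), below 0.

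**Figure D3:**
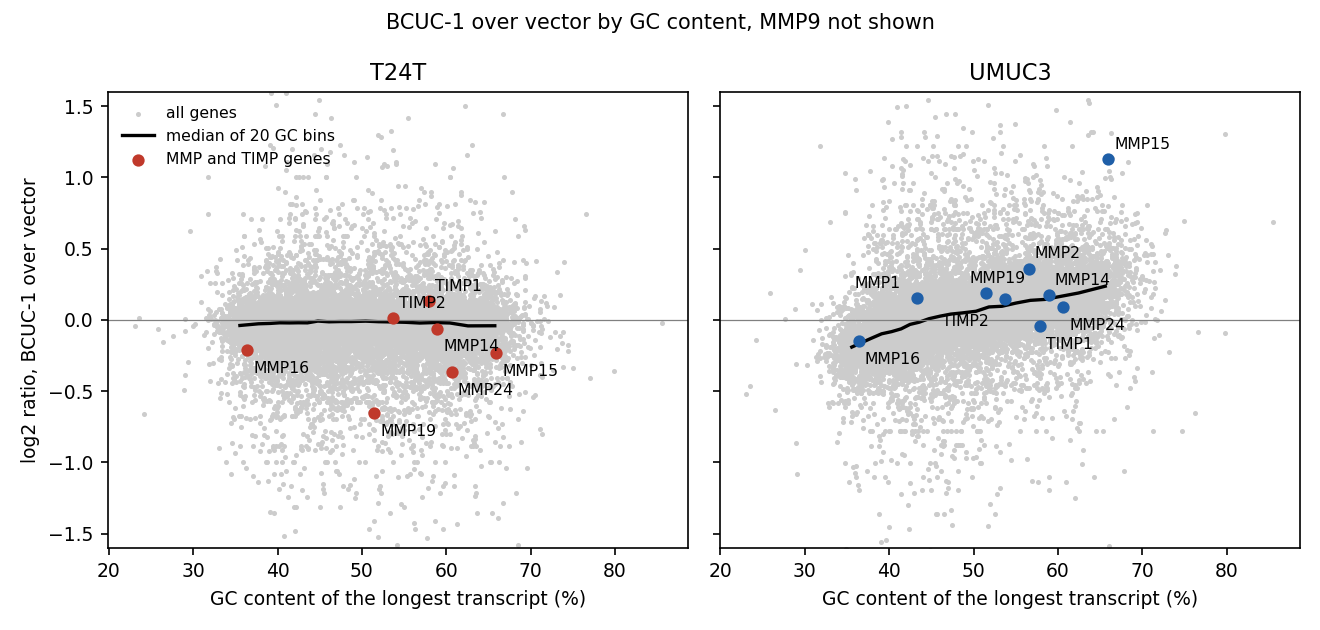
Log2 ratio of BCUC-1 over vector against the GC content of the longest transcript, in T24T (left) and UMUC3 (right), for genes past the 20-read floor (grey), the MMP and TIMP genes other than MMP9 (coloured), and the median in 20 GC bins (line). The line is flat in T24T and climbs from -0.19 to 0.24 in UMUC3, where MMP15 sits above its right end. MMP9 lies above the plotted range.

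MMP16, or MT3-MMP, lies on the minus strand at chr8:88032009-88328025 (ENSG00000156103) and is membrane-anchored. It had 328 reads (1.15 RPKM) in T24T BCUC-1 and 381 reads (1.33 RPKM) in T24T vector, and 679 reads (2.47 RPKM) in UMUC3 BCUC-1 and 878 reads (2.74 RPKM) in UMUC3 vector. The BCUC-1 library was the lower of the pair in both lines, by ratios of 0.864 (0.743 to 1.00) in T24T and 0.902 (0.814 to 0.998) in UMUC3. The UMUC3 interval no longer lay below 1 once the GC trend was removed.

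MMP24, or MT5-MMP, known for its expression in brain, lies on the plus strand at chr20:35226654-35277000 (ENSG00000125966). It had 61 reads (0.586 RPKM) in T24T BCUC-1 and 79 reads (0.756 RPKM) in T24T vector, and 85 reads (0.847 RPKM) in UMUC3 BCUC-1 and 93 reads (0.795 RPKM) in UMUC3 vector. All 4 levels lay within a narrow range, and the ratios of 0.775 (0.546 to 1.10) in T24T and 1.07 (0.785 to 1.45) in UMUC3 did not differ from 1 beyond counting error. MMP24-AS1, on the opposite strand with 799 shared exonic bases, had 234 and 267 reads in T24T BCUC-1 and vector and 461 and 427 reads in UMUC3 BCUC-1 and vector, more than MMP24 itself; the part of shared reads was not tested.

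Both inhibitors were among the 3 highest genes of the family in every library. TIMP1, which binds the MMP9 precursor as well as active proteases, lies on the plus strand at chrX:47582313-47586789 (ENSG00000102265). It had 524 reads (14.4 RPKM) in T24T BCUC-1 and 480 reads (13.2 RPKM) in T24T vector, and 607 reads (17.3 RPKM) in UMUC3 BCUC-1 and 729 reads (17.9 RPKM) in UMUC3 vector. Its ratios were 1.10 (0.966 to 1.24) in T24T and 0.971 (0.870 to 1.08) in UMUC3, neither away from 1 beyond counting error, although the UMUC3 value lay below it once the GC trend was removed.

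TIMP2, which inhibits many MMPs and bridges MMP14 to pro-MMP2, lies on the minus strand at chr17:78852977-78925387 (ENSG00000035862). It had 1092 reads (8.22 RPKM) in T24T BCUC-1 and 1088 reads (8.16 RPKM) in T24T vector, and 1879 reads (14.7 RPKM) in UMUC3 BCUC-1 and 1974 reads (13.2 RPKM) in UMUC3 vector. The ratio was 1.01 (0.926 to 1.10) in T24T and 1.11 (1.04 to 1.18) in UMUC3. The same-strand gene CEP295NL shares 198 exonic bases with it and RP11-323N12.5 shares 367 on the opposite strand; the part of shared reads was not tested.

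**Figure D4:**
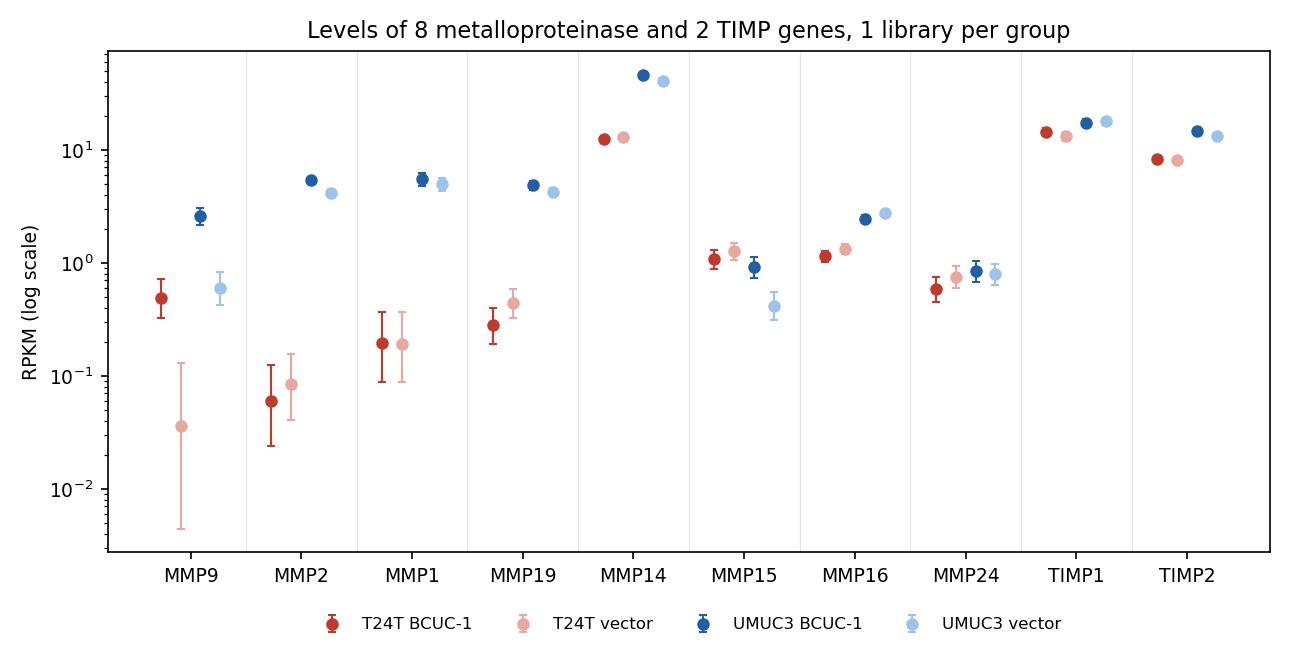
RPKM (log axis) of the 8 metalloproteinase and 2 TIMP genes in the T24T BCUC-1, T24T vector, UMUC3 BCUC-1 and UMUC3 vector libraries, with exact 95% Poisson intervals as bars (counting error only). MMP14, TIMP1 and TIMP2 are the 3 highest in all 4 libraries. MMP9 is the gene whose BCUC-1 and vector points lie farthest apart in both lines.

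The order of the levels was stable at its top and varied below. In both T24T libraries TIMP1, MMP14 and TIMP2 led, in that order, and MMP14 and TIMP1 did not differ beyond their Poisson intervals in the vector library. In both UMUC3 libraries MMP14 led, before TIMP1 and TIMP2. Neighbours MMP16 and MMP15 overlapped in both T24T libraries, and MMP1, MMP2 and MMP19 overlapped as neighbours in both UMUC3 libraries. MMP9 was number 7 of 10 with BCUC-1 in both lines, number 10 in T24T vector and number 9 in UMUC3 vector. In T24T BCUC-1 it overlapped its neighbours MMP24 and MMP19, and in UMUC3 BCUC-1 it overlapped MMP16.

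Summed over the 8 proteases, T24T BCUC-1 had 16.2 RPKM and T24T vector 17.0 RPKM, while UMUC3 BCUC-1 had 68.4 RPKM and UMUC3 vector 58.5 RPKM. MMP14 made up 76.3% of that sum in T24T BCUC-1, 75.8% in T24T vector, 67.1% in UMUC3 BCUC-1 and 69.4% in UMUC3 vector. MMP9 made up 3.03% in T24T BCUC-1 and 0.213% in T24T vector, and 3.77% in UMUC3 BCUC-1 and 1.02% in UMUC3 vector. Its share was higher with BCUC-1 in both lines and stayed a small part of the transcripts. The summed TIMP level over the summed MMP level was 1.40 in T24T BCUC-1 and 1.25 in T24T vector, and 0.468 in UMUC3 BCUC-1 and 0.531 in UMUC3 vector, so the inhibitor transcripts outnumbered the protease transcripts per length in T24T and not in UMUC3.

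More genes were called between lines (10847 of 15415) than between plasmids (0 of 15415). No gene of the family had overlapping RPKM ranges between the 2 T24T and the 2 UMUC3 libraries. The share of all genes without such overlap was not computed, so this is not read as a trait of the family. For MMP24 the gap was small, with 0.756 RPKM in T24T vector and 0.795 RPKM in UMUC3 vector. Their ratio of 0.951 had a counting interval of 0.695 to 1.30, which held 1. Limma with plasmid in the model, over 15415 genes with Benjamini-Hochberg adjustment, called 1 of 8 genes higher in T24T, against 40.8% of all genes, and 7 of 8 lower in T24T, against 29.6% of all genes. On the log2(RPKM + 1) scale the T24T minus UMUC3 differences were -2.42 for MMP2 (SE 0.12, limma adjusted p = 7.40e-06), -2.38 for MMP1 (SE 0.10, limma adjusted p = 4.66e-06) and -2.03 for MMP19 (SE 0.12, limma adjusted p = 1.50e-05). The difference was -1.70 for MMP14 (SE 0.081, limma adjusted p = 7.25e-06). MMP1, MMP2 and MMP19 passed the floor of 1 RPKM in 2 libraries through their UMUC3 libraries alone. They could therefore only come out lower in T24T. MMP15 passed it through its T24T libraries alone and could only come out higher there. The direction of these calls is thus no support for a family pattern.

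TIMP2, MMP16 and TIMP1 were lower in T24T, with differences of -0.70, -0.69 and -0.33 and limma adjusted p of 0.000321, 0.000800 and 0.00863. TIMP1 missed the threshold when no floor was set (limma adjusted p = 0.0579). MMP15 was the 1 gene higher in T24T, by 0.39 (SE 0.14, limma adjusted p = 0.0440), and this call was lost under 4 of the 6 other settings in which MMP15 entered. MMP9, tested with a floor of 1 RPKM in 1 library, was lower in T24T with a difference of -0.94 (SE 0.18, limma adjusted p = 0.00481). It passed that floor through UMUC3 BCUC-1 alone (2.58 RPKM), so the floor favoured this direction. With no floor MMP9 missed the threshold (limma adjusted p = 0.0672).

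As plain ratios of T24T to UMUC3, MMP2 was 0.0112 with BCUC-1 and 0.0205 with vector, and MMP1 was 0.0352 with BCUC-1 and 0.0390 with vector. MMP9 was 0.190 with BCUC-1 and 0.0605 with vector, and MMP15 was 1.17 (0.882 to 1.56) with BCUC-1 and 3.02 (2.16 to 4.28) with vector. For MMP15 the gap between lines was therefore within counting error in the BCUC-1 libraries.

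Of 17 other MMP and TIMP genes, 9 are in the table, and 3 in T24T and 2 in UMUC3 had 20 reads in the pair; none was past 2-fold. MMP17, a membrane-anchored protease, had 117 and 116 reads in T24T BCUC-1 and vector and 36 and 42 reads in UMUC3 BCUC-1 and vector. TIMP3, a matrix-bound inhibitor, had 63 and 57 reads in T24T BCUC-1 and vector and 6 and 5 in UMUC3 BCUC-1 and vector. The UMUC3 reads of TIMP3 are too few for a ratio.

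Genes that activate or anchor MMPs (18 in all, among them furin-type convertases, the urokinase system and integrins) held 1 past 2-fold of 17 at the floor in T24T and 0 of 15 in UMUC3. That gene was PCSK5, a proprotein convertase, 2-fold higher with 18 and 9 reads in T24T BCUC-1 and vector. Of all genes, 0.414% were as much higher in T24T. No counting interval was computed for PCSK5, whose reads were few. In UMUC3 it had 0 reads with BCUC-1 and 2 with vector, too few for a ratio. PLAU, urokinase, had 1513 and 1558 reads in T24T BCUC-1 and vector and 9341 and 9462 reads in UMUC3 BCUC-1 and vector. The list medians were log2 -0.04 in T24T and 0.16 in UMUC3 (0.05 with the GC trend removed), against -0.02 and 0.04 over all genes.

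No gene was past 2-fold in either line among other inhibitors and binders (8 of 11 at the floor in each line), ADAM and ADAMTS proteases (11 of 16 in T24T and 10 in UMUC3) or matrix substrates (13 of 18 in each line). The shares over all genes were 0.414% higher and 0.839% lower in T24T and 0.964% higher and 0.611% lower in UMUC3, so a count of 0 in lists of this size is near the background. The medians of these lists were log2 0.07, -0.02 and -0.12 in T24T, and 0.03, -0.01 and 0.23 in UMUC3, where the matrix substrates had 0.07 with the GC trend removed.

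Among 23 transcription factors known to act on MMP promoters, 22 were at the floor in each line and none was past 2-fold, again near those shares. JUN, a subunit of AP-1, had 884 and 732 reads in T24T BCUC-1 and vector (log2 ratio 0.28) and 5242 and 5935 reads in UMUC3 BCUC-1 and vector (0.04). FOSL1, another AP-1 subunit, had log2 ratios of 0.16 in T24T and 0.05 in UMUC3, and ETS1 had 0.19 in T24T and -0.14 in UMUC3. The list medians were -0.00112 in T24T and 0.06 in UMUC3.

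Markers of leukocytes, cells rich in MMP9, were few in these cultured lines. Of 12 leukocyte markers 6 are in the table, and CD68, which lysosomes of other cells also hold, made up 6.78 of a summed 6.86 RPKM in T24T BCUC-1 and 7.45 of 7.61 RPKM in T24T vector. In UMUC3 it made up nearly all of 125 RPKM with BCUC-1 and 119 RPKM with vector. CD14 had 1 and 3 reads in T24T BCUC-1 and vector and 6 and 0 in UMUC3 BCUC-1 and vector, and ITGAM had 3 and 5 reads in T24T BCUC-1 and vector and 15 and 32 in UMUC3 BCUC-1 and vector. CSF1R and ELANE had at most 2 reads in any library. Fibroblast markers (8) summed to 0.189 RPKM in T24T BCUC-1 and 0.341 RPKM in T24T vector, and to 0.983 RPKM in UMUC3 BCUC-1 and 0.673 RPKM in UMUC3 vector. Among them THY1 had 26 reads in UMUC3 BCUC-1 and 15 in UMUC3 vector, a log2 ratio of 1.01. Any link of these marker genes to the MMP9 values was not tested. Endothelial markers (5) summed to at most 0.0860 RPKM in any library. Of 14 epithelial and urothelial markers, 1 of 10 at the floor in T24T was at least 2-fold lower, against 0.839% of all genes, and 0 of 7 in UMUC3 were past 2-fold. It was UPK2, a uroplakin gene, with 9 reads in T24T BCUC-1 and 25 in T24T vector (log2 ratio -1.47), and with 12 and 17 reads in UMUC3 BCUC-1 and vector.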

How the data were processed

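Total RNA was taken from 4 groups of cells, 1 library per group, and libraries were made with standard Illumina protocols, per the labels' protocols. The deposited table gives RPKM per gene and library, made by the authors, and, per the file headers, exon coordinates and the exonic length in bases. The submitters' processing notes name Bowtie 0.12.2. Its role, the read counter, the annotation and the use of strand were not given in the sources used here. Gene spans were the same as in GENCODE 29 (GRCh38) at the start or the end for 96.8% of 22720 symbols, and at both ends for all 10 genes of the family.

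RPKM times length gave whole reads, within 0.001 reads, for 100% of values, so reads and depth were recovered. Within a line, ratios of RPKM carry exact Clopper-Pearson 95% intervals; levels carry exact Poisson intervals; a gene counted at 20 or more reads in the pair, and a fold at 2 or more. GC content came from the longest GENCODE transcript (symbols matched directly or through RefSeq synonyms), available for 81.7% of genes at the floor in T24T and 81.8% in UMUC3. The tests over all 4 libraries used limma 3.58.1 in R 4.3.3, two-sided, with variance trended on level, on log2(RPKM + 1) for genes reaching 1 RPKM in 2 or more libraries, with line and plasmid as terms, 1 residual degree of freedom and Benjamini-Hochberg adjustment; the code was tested on simulated data. Other values used Python 3.11.15 with numpy 2.4.6, pandas 2.3.3 and scipy 1.17.1, and plots matplotlib 3.10.9. Whether the effect of BCUC-1 differs between lines could not be tested, since an interaction term uses up the residual degrees of freedom.

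Alternatives were other floors, scalings and pseudocounts, removal of the GC trend, quantile normalization, limma-voom on recovered reads, and the model without its other term. The members and lists were chosen with earlier results of these data known. The rule for named genes covers the members, the genes past 2-fold and up to 3 of highest mean RPKM of each list, of which those past 2-fold and some of the highest are described, and the 5 nearest to MMP9 (prior count 0.5); a few others, such as the defining markers at or near 0, were named after their values were seen.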

Additional observations from a re-analysis of the deposited data

Results flagged for a closer look

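For 6 genes the BCUC-1 library was above the vector library in one line and below it in the other. The share of all genes with such opposite directions was not computed, so this count is not read as a trait of the family. Among all genes at the read floor, 7606 lay above a ratio of 1 and 10276 below it in T24T. In UMUC3 10002 lay above it and 7523 below. Each group has 1 library, so the difference between lines was not tested. The T24T minus UMUC3 difference of the log2 ratio of BCUC-1 over vector was -1.36 for MMP15, with log2 ratios of -0.23 in T24T and 1.13 in UMUC3. It was -0.87 for MMP2, which had 17 reads in the T24T pair and so did not reach the read floor there. MMP19 had a difference of -0.84, with 31 and 49 reads in T24T BCUC-1 and vector. It was -0.46 for MMP24, where both intervals held a ratio of 1; with the GC trend removed both of its log2 ratios were below 0, -0.35 in T24T and -0.07 in UMUC3. For MMP14 the difference was -0.24, and the UMUC3 value moved to 0.03 with the GC trend removed. TIMP1 differed the other way, by 0.175, and both of its intervals held a ratio of 1. Of these 6, MMP15 alone was past 2-fold in a line.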

How the results depend on the processing

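Of 108 within-line comparisons with another setting, 102 kept their value within its error and 6 moved. Another read floor leaves the ratio of a gene as it was, so those comparisons could only keep their value. Equal medians, or leaving out mitochondrial reads, shift all genes of a line by the same small amount. The count is therefore no measure of how robust the ratios are. In T24T, 1 gene of the family was past 2-fold, and 0 with a floor of 100 reads or on log2(RPKM + 1), where MMP9 has 29 reads and a low level. In UMUC3, 2 were past 2-fold, and 1 on log2(RPKM + 1) and 1 with the GC trend removed; MMP15 was the gene lost in both. For BCUC-1 over vector in both lines, 0 genes were called by limma, against 60 at 5 RPKM or more, 1 using a pseudocount of 0.1 and 15 with limma-voom on recovered reads, and 0 genes of the family, against 1 with limma-voom. For T24T over UMUC3, 10847 genes were called, against 6780 with a floor of 5 RPKM, where 3 of the family entered and 3 were called in place of 8; fewer genes are tested there. MMP19 turned from -0.0087 to 0.071 with limma-voom for BCUC-1 in both lines, both far from the threshold. The MMP15 difference between lines had limma adjusted p of 0.0683 to 0.248 where its call was lost; the cause was not tested. In UMUC3, 169 genes were 2-fold higher and 107 lower, and 149 and 122 with equal medians. No paired analysis was possible because each group has 1 library, so a replicate number pairs nothing beyond the line. The limma model itself sets BCUC-1 against vector within each line through its line term; without that term it also called 0 genes, with 11 under an unadjusted p of 0.05 in place of 652. Leaving out a library would leave no ratio in its line and no residual degree of freedom in limma. For MMP9 in T24T, 2 reads in the vector library give the wide interval.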
